A study of Mus musculus with 8 samples.

Results

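The genes described are 10 mouse genes of T helper 1 (Th1) cells, the helper T cells that make interferon-gamma. They were chosen by name, as every row of the deposited table whose gene symbol was Tbx21, Eomes, Stat4, Il12rb1, Il12rb2, Il18r1, Il18rap, Cxcr3, Ifng or Tnf. All 10 were found, each in 1 row, among the 18438 genes of the table, and all 10 passed the filter on low values, which asked for 10 or more in 2 or more libraries, as did 13358 genes in all.

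All RNA came from spleen T cells of C57BL/6 mice with experimental autoimmune encephalomyelitis (EAE), a model of multiple sclerosis, taken at day 7. The 4 groups of 2 libraries were regulatory T cells (Treg, CD4+ CD25hi YFP+) of mice labelled IRE1a-/- (KO), Treg of wild-type mice (WT), and effector T cells (Teff, CD4+ CD25- YFP-) of KO mice and of WT mice. IRE1a sits in the endoplasmic reticulum membrane, where it detects unfolded proteins and starts a stress response. The labels give no age or sex, and they do not say which cells carry the deletion, what drives YFP, or whether replicate libraries stem from different animals. P-values set a group difference against the spread between libraries, pooled over the 4 groups and drawn toward that of other genes. That spread may therefore be technical.

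Th1 cells arise when an activated CD4+ T cell meets interleukin-12 (IL-12) and interferon-gamma. IL-12 binds a receptor of the chains IL-12Rb1 and IL-12Rb2 and activates STAT4, and the T-box factor T-bet, encoded by Tbx21, then turns on Ifng and Cxcr3, the receptor that guides Th1 cells to inflamed tissue. IL-18, through IL-18R1 and its accessory chain encoded by Il18rap, adds to interferon-gamma output. In EAE, Th1 cells are 1 kind of helper cell that can enter the nervous system, and Treg that meet Th1 cytokines can themselves express T-bet and CXCR3.

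The promoters of the genes with the largest falls that passed the test in KO Teff (Tbx21, Cxcr3 and Ifng) are shown with that of Il12rb2, the gene with the largest difference between Treg and Teff. Each is the 250 bases before the transcription start, from RefSeq (GRCm38.p6), 5′ to 3′ on the gene's strand. Capitals mark a match to TTCNNNGAA, the letters of the STAT element known as GAS, which reads the same on both strands.
Tbx21, chr11:97115332-97115581, minus strand: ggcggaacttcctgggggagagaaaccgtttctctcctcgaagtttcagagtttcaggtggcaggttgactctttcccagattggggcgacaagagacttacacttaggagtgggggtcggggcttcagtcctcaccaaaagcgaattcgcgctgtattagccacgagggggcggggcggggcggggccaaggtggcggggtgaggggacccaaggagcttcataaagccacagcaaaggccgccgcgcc
Cxcr3, chrX:101734148-101734397, minus strand: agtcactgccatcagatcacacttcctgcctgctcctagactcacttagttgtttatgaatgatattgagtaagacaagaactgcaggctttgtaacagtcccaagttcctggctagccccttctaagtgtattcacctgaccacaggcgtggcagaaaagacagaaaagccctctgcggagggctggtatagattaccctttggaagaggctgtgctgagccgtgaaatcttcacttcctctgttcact
Ifng, chr10:118440796-118441045, plus strand: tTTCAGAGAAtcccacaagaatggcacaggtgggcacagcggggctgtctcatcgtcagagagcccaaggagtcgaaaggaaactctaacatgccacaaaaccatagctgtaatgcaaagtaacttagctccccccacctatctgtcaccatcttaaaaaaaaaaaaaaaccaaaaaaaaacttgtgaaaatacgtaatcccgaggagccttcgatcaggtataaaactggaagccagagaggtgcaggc
Il12rb2, chr6:67376189-67376438, minus strand: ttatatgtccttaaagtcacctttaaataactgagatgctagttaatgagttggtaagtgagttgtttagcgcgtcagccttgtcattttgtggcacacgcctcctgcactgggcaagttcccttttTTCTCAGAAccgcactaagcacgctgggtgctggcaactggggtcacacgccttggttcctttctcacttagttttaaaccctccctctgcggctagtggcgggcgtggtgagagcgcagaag
Ifng and Il12rb2 each held 1 match, and Tbx21 and Cxcr3 held none. RefSeq entries were found for 9 of the 10 genes, with 12 starts in all, and 3 of these 12 windows held TTCNNNGAA (Ifng, Il12rb2 and 1 start of Il18r1), against 7.02% of 32851 promoter windows of the same length. The T-box letters AGGTGTGA, searched on both strands, were in none of the 12 windows and in 1.12% of all windows. The shorter core GGTGTG, which lies within AGGTGTGA, was in 1 window of Il18r1 and in 16.3% of all windows. A match is a string of letters and not a bound site, and no match says only that these letters are not in the window.

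Across the libraries the deposited normalized read numbers summed to between 17504097 and 18751258, with 16324 to 16642 genes above 0. The labelled cell types were met by their markers: Il2ra, which encodes CD25, lay between 8699 and 9012 in Treg libraries and between 436 and 690.3 in Teff libraries. Foxp3, the lineage factor of Treg, lay between 89.1 and 117 in Treg libraries, between 2.06 and 8.29 in KO Teff libraries and at 0 in both WT Teff libraries. Values below are these normalized read numbers, and a fold change is the difference of log2(value + 1), a scale on which changes of low genes appear smaller than they are. Tests are limma's moderated test over all 13358 genes with Benjamini-Hochberg adjustment, called at 0.05. Of the 5 Treg identity genes (Foxp3, Il2ra, Ikzf2, Ctla4 and Tnfrsf18) 3 were called lower in KO than in WT Teff and 1, Foxp3, higher. Among all tested genes 5.08% were lower and 1.84% higher. In Teff Foxp3 was near the floor, and it passed the filter on low values through its Treg libraries. Its call was lost with a pseudocount of 10, with a filter of 50 and with the replicate number as a block. The median of the 5 genes was -0.40, and 4 of the 5 estimates were below 0. In bulk samples, fewer cells of a type and less RNA per cell cannot be told apart.

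**Figure D1:**
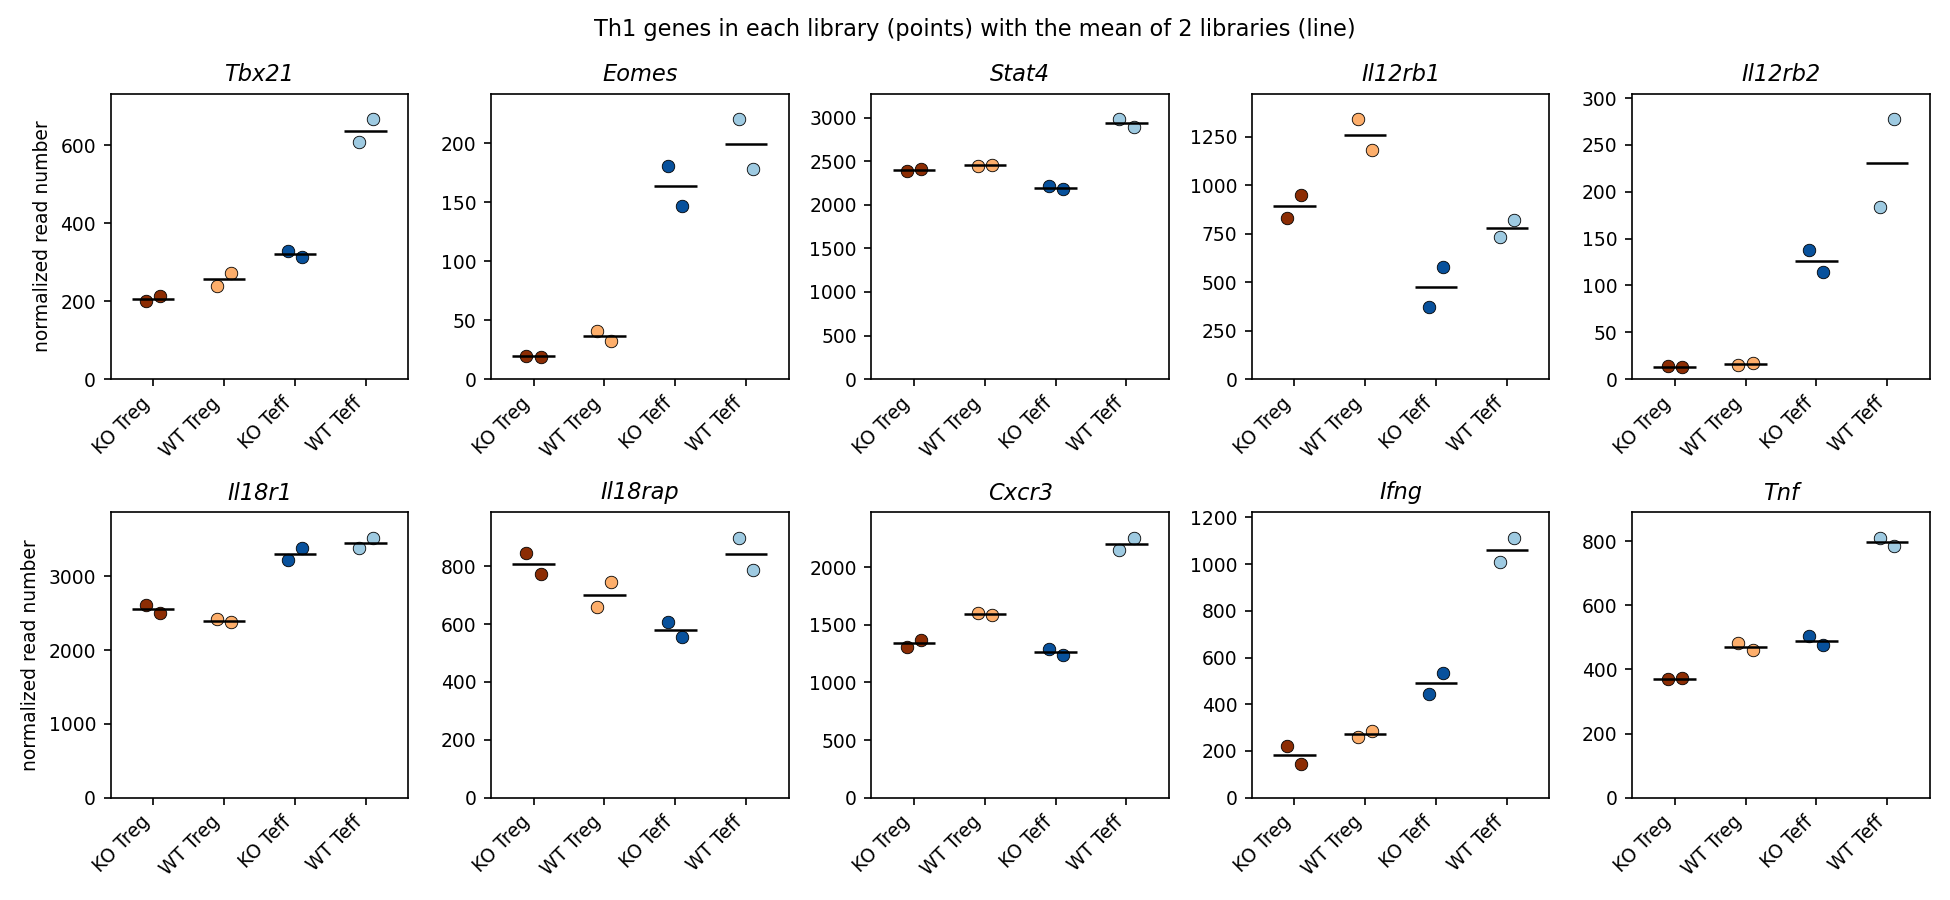
Normalized read number of each of the 10 Th1 genes on a linear axis from 0. Points are the 8 libraries in 4 groups (KO Treg, WT Treg, KO Teff, WT Teff), and lines are means of 2 libraries. WT Teff stands above the other groups for Tbx21, Ifng, Tnf, Cxcr3 and Stat4, and Il12rb2 and Eomes are near the floor in Treg.

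The T-box factors differed between the cell types and, for Tbx21, between the genotypes in Teff. Tbx21 (chromosome 11, 97098071 to 97115331 of GRCm38, the build of all gene positions given here, minus strand) had 329 and 313 in KO Teff, against 609.7 and 667 in WT Teff. In Treg it had 199.7 and 214 in KO, against 240.2 and 274 in WT. No 2 groups overlapped, and WT Teff stood far above the rest. Tbx21 fell by 0.99 on the log2 scale in KO Teff (SE 0.12, adjusted p = 0.00582), and the call held under all 18 alternatives (adjusted p at most 0.0418). The step between the Treg genotypes did not pass (log2 fold change -0.31, adjusted p = 0.30).

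Eomes (chromosome 9, 118478212 to 118486132, plus strand) encodes the related T-box factor EOMES, best known from killer cells and memory T cells. It had 181 and 147 in KO Teff, against 220.0 and 178 in WT Teff, and the libraries of these groups overlapped. KO Treg had 19.8 and 18.8, against 40.4 and 32.0 in WT Treg, without overlap. Neither genotype difference passed (log2 fold change -0.28, adjusted p = 0.544 in Teff and -0.86, adjusted p = 0.143 in Treg). For Eomes the point estimate was the larger one in Treg, the reverse of Tbx21, and the difference between the 2 effects did not pass (0.58, SE 0.33, adjusted p = 0.617).

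STAT4 carries the IL-12 signal from the receptor to the nucleus. Stat4 (chromosome 1, 51987148 to 52107189, plus strand) had 2216 and 2175 in KO Teff, against 2978 and 2897 in WT Teff. Its Treg values were 2382 and 2405 in KO and 2443 and 2460.0 in WT, a narrow band between the 2 Teff genotypes. Stat4 fell by 0.42 in KO Teff (SE 0.05, adjusted p = 0.00677), a smaller change than that of Tbx21, with a smaller spread between libraries. This call was lost when only the 2 Teff groups were fitted (adjusted p = 0.0564). In Treg the estimate was -0.03 with a 95% interval of -0.16 to 0.09 (adjusted p = 0.829).

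The IL-12 receptor chains were read with more scatter. Il12rb1 (chromosome 8, 70808449 to 70821424, plus strand), whose chain is shared with the IL-23 receptor, had 374 and 581 in KO Teff, against 733 and 823 in WT Teff. In Treg it had 832 and 952 in KO, against 1339 and 1184 in WT. Both KO groups lay below their WT groups without overlap, and neither difference passed (-0.74, SE 0.20, adjusted p = 0.0769 in Teff and -0.50, SE 0.20, adjusted p = 0.308 in Treg). In Teff the outcome turned on 1 library: without KO Teff replicate 2 the estimate was -1.05 and the adjusted p 0.0247, over a range of 0.0247 to 0.276 for the 18 alternatives. The authors' deposited table called Il12rb1 in Teff (log2 fold change -0.71, adjusted p = 0.0111).

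Il12rb2 (chromosome 6, 67291318 to 67376188, minus strand) encodes the chain that binds STAT4. It had 137 and 115 in KO Teff, against 184 and 277 in WT Teff. In Treg it was low in every library, at 13.6 and 13.3 in KO and 15.5 and 17.0 in WT. The WT Teff libraries lay far apart, and the difference in Teff did not pass (-0.84, 95% interval -1.47 to -0.21, adjusted p = 0.122). In Treg the estimate was -0.26 (95% interval -0.89 to 0.37, adjusted p = 0.727).

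The IL-18 receptor chains did not move alike in Teff. Il18r1 (chromosome 1, 40465552 to 40500854, plus strand), the ligand-binding chain, had 3218 and 3384 in KO Teff, against 3377 and 3518 in WT Teff, which overlap. In Treg it had 2610.4 and 2496 in KO, against 2417 and 2377 in WT. Its estimates were -0.06 in Teff (95% interval -0.20 to 0.07, adjusted p = 0.596) and 0.09 in Treg (-0.05 to 0.23, adjusted p = 0.539), the narrowest intervals next to that of Stat4.

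Il18rap (chromosome 1, 40515362 to 40551705, plus strand), the accessory chain needed for signalling, had 606 and 554 in KO Teff, against 898 and 788 in WT Teff. In Treg the order was the other way round, with 845 and 772 in KO and 659 and 745 in WT. Il18rap fell by 0.54 in KO Teff (SE 0.11, adjusted p = 0.0327), while in Treg the estimate was 0.20 (SE 0.11, adjusted p = 0.465). The Teff call was weak: it was lost in 12 of 18 alternatives, among them all 8 that left out 1 library (adjusted p between 0.0523 and 0.146). The authors' deposited table called it too (log2 fold change -0.54, adjusted p = 0.00692).

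Cxcr3 (chromosome X, 101731535 to 101734269, minus strand) had 1286 and 1237 in KO Teff, against 2150.4 and 2254 in WT Teff. In Treg it had 1309 and 1372 in KO, against 1603 and 1588 in WT. KO Teff thus read at the level of KO Treg or slightly below it. Cxcr3 fell by 0.80 in KO Teff (SE 0.06, adjusted p = 0.00144), the smallest p of the 10 genes in this comparison, and the call held under all 18 alternatives (adjusted p at most 0.0254). In Treg the estimate was -0.25 (SE 0.06, adjusted p = 0.131).

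The cytokine genes fell in KO Teff. Ifng (chromosome 10, 118441046 to 118445892, plus strand) had 445 and 534 in KO Teff, against 1009.9 and 1112 in WT Teff. In Treg it had 223 and 146 in KO, against 259.9 and 285 in WT, and the 2 KO Treg libraries differed from each other by 0.61 on the log2 scale. Ifng fell by 1.12 in KO Teff (SE 0.20, adjusted p = 0.0224), the largest fall of the 10 genes, and had an estimate of -0.59 in Treg (SE 0.20, adjusted p = 0.241). The Teff call was lost without WT Teff replicate 1 or 2 (adjusted p = 0.0723 and 0.115), without KO Teff replicate 1 or 2 (0.0938 and 0.0682), and without the trend and robust shrinkage (0.0604). The authors' deposited table gave -1.12 with an adjusted p of 1.89e-05.

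Tnf (chromosome 17, 35199381 to 35202007, minus strand) encodes tumour necrosis factor, which Th1 cells share with macrophages and many other cells. It had 503 and 476 in KO Teff, against 810.0 and 784 in WT Teff. In Treg it had 370.4 and 373 in KO, against 482 and 461 in WT, so that WT Treg and KO Teff read nearly alike. Tnf fell by 0.70 in KO Teff (SE 0.09, adjusted p = 0.00647), held under all 18 alternatives (adjusted p at most 0.0469), and had an estimate of -0.34 in Treg (SE 0.09, adjusted p = 0.129).

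Counted together for KO against WT Teff, 6 of the 10 genes fell and none rose, where 5.08% of all tested genes fell, 1.84% rose and 6.92% were called in either direction. The genes that fell were Tbx21, Stat4, Il18rap, Cxcr3, Ifng and Tnf. All 10 estimates were below 0, with a median of -0.72 against -0.02 over all tested genes, and 8 of 10 had both KO libraries below both WT libraries, as did 27.4% of all tested genes (49.8% in either direction, 22.4% with KO above). At an unadjusted p below 0.05 there were 8 of 10, against 21.6% of all tested genes. Over the 18 alternatives between 4 and 6 of the 10 were called, and the count was 4 when WT Teff replicate 1 or 2 or KO Teff replicate 1 was left out, with only the 2 Teff groups fitted, and without trend and robust shrinkage. The authors' deposited table called 7 of 10, against 8.82% of the genes it gives an adjusted p.

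In Treg none of the 10 genes passed limma's test for KO against WT, where 1.45% of all tested genes were called, 0.674% higher and 0.779% lower. At an unadjusted p below 0.05 there were 6 of 10 (Tbx21, Eomes, Ifng, Tnf, Cxcr3 and Il12rb1), against 14.7% of all tested genes, and the authors' deposited table called 0, against 3.28% of the genes it gives an adjusted p. The estimates were below 0 for 8 genes and above 0 for Il18r1 and Il18rap, with a median of -0.28 against -0.01 over all tested genes. No library of the 2 genotypes overlapped for any of the 10: the KO pair was lower for 8 genes (25.9% of all tested genes) and higher for 2 (22.8%, or 48.7% in either direction).

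**Figure D2:**
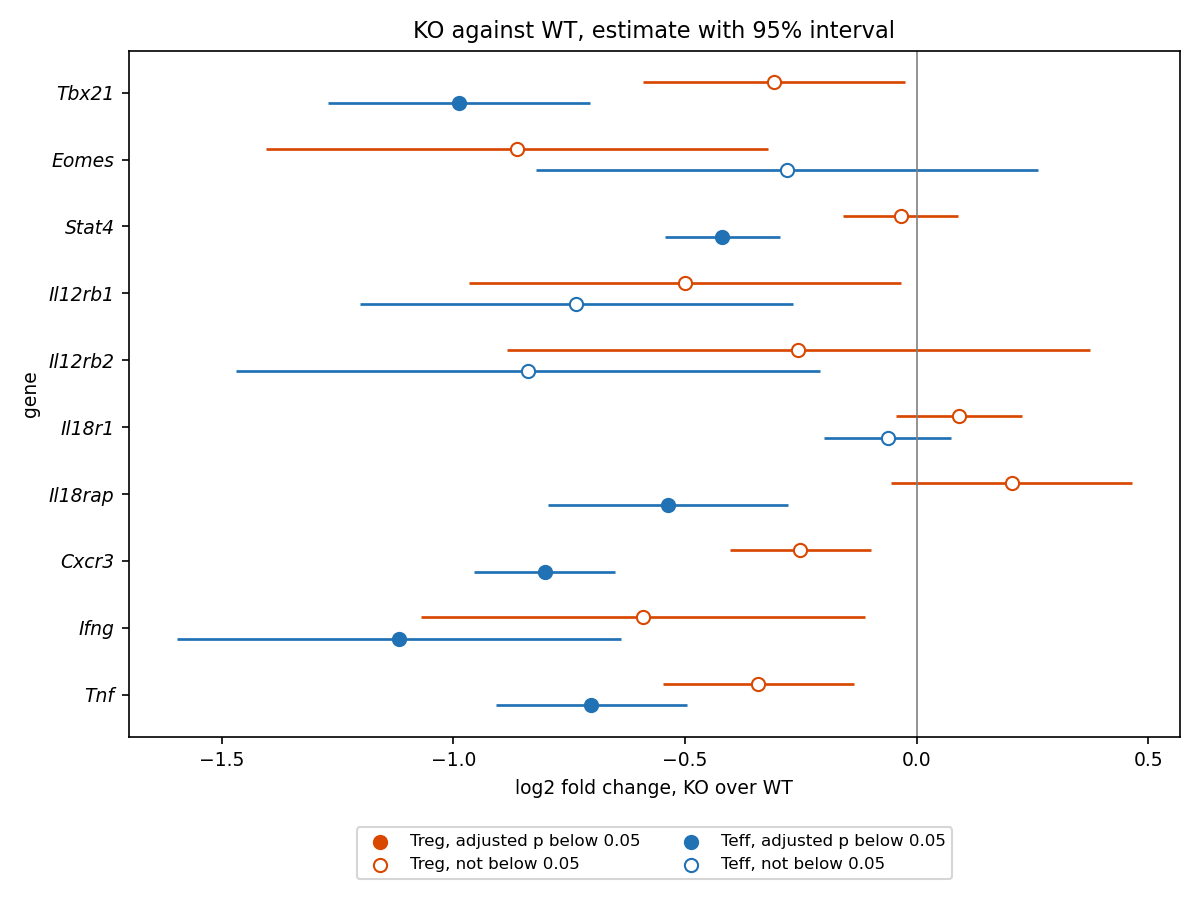
Log2 fold change of KO over WT for each of the 10 genes, with 95% intervals from limma, in Treg (orange) and in Teff (blue). Filled points passed an adjusted p of 0.05. The 6 filled points are all in Teff and all below 0, and Eomes is the gene whose Treg estimate lies well below its Teff estimate.

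The difference between the genotype effects was tested directly, as the effect in Teff minus the effect in Treg. None of the 10 genes passed limma's test, and 0.0225% of all tested genes did. At an unadjusted p below 0.05 there were 5 of 10, against 10.4% of all tested genes. The 5 were Tbx21 (-0.68, adjusted p = 0.242), Cxcr3 (-0.55, adjusted p = 0.124), Stat4 (-0.39, adjusted p = 0.152), Il18rap (-0.74, adjusted p = 0.165) and Tnf (-0.36, adjusted p = 0.374). The estimate was below 0 for 9 of 10 genes. A larger fall in Teff than in Treg is thus not shown for any single gene.

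Treg held less transcript of most of these genes than Teff did, and more of Il12rb1. In WT mice 8 of the 10 genes were lower in Treg and 1 was higher, where 11.6% and 13.5% of all tested genes were (25.1% in either direction, and 36.6% at an unadjusted p below 0.05). Both Treg libraries lay below both Teff libraries for 9 genes (31.5% of all tested genes) and above them for 1 (32% of all, 63.5% in either direction). The largest differences were those of Il12rb2 (log2 fold change -3.72, SE 0.27, adjusted p = 0.000110), Eomes (-2.43, SE 0.23, adjusted p = 0.000387), Ifng (-1.96, SE 0.20, adjusted p = 0.000552) and Tbx21 (-1.31, SE 0.12, adjusted p = 0.00033). Tnf, Il18r1, Cxcr3 and Stat4 were lower by less, at -0.76, -0.52, -0.46 and -0.26. Il12rb1 was higher in Treg by 0.70 (SE 0.20, adjusted p = 0.0405), a call lost without any single WT library or either KO Treg library (adjusted p from 0.0580 to 0.175) and without trend and robust shrinkage (0.0882). Stat4 missed the threshold when WT Treg replicate 1 or 2 was left out (adjusted p = 0.0623 and 0.0577). Il18rap did not pass (-0.26, adjusted p = 0.133).

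Among KO mice 6 of the 10 genes were lower in Treg and 2 were higher, where 11.2% and 15.7% of all tested genes were (26.9% in either direction, and 38.6% at an unadjusted p below 0.05). The Treg libraries lay below both Teff libraries for 6 genes (32.1% of all tested genes) and above them for 4 (32.9%, or 64.9% in either direction). Il12rb2 (-3.13), Eomes (-3.01), Ifng (-1.43), Tbx21 (-0.63), Tnf (-0.40) and Il18r1 (-0.37) were lower. Il12rb1 was higher by 0.93 (SE 0.20, adjusted p = 0.0123), and so was Il18rap, by 0.48 (SE 0.11, adjusted p = 0.0171). Cxcr3 and Stat4, which were lower in Treg than in Teff among WT mice, had estimates of 0.09 and 0.12 among KO mice (adjusted p = 0.370 and 0.130). The calls of Tnf without either KO Treg library or KO Teff replicate 1 (adjusted p = 0.0649 to 0.0695) or with only the KO groups fitted (0.0511), of Il12rb1 without KO Treg replicate 2 (0.0731) and of Il18rap without KO Treg replicate 1 or KO Teff replicate 2 (0.10 and 0.0866) were lost, and Stat4 was called when libraries were scaled to equal totals (0.0397).

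**Figure D3:**
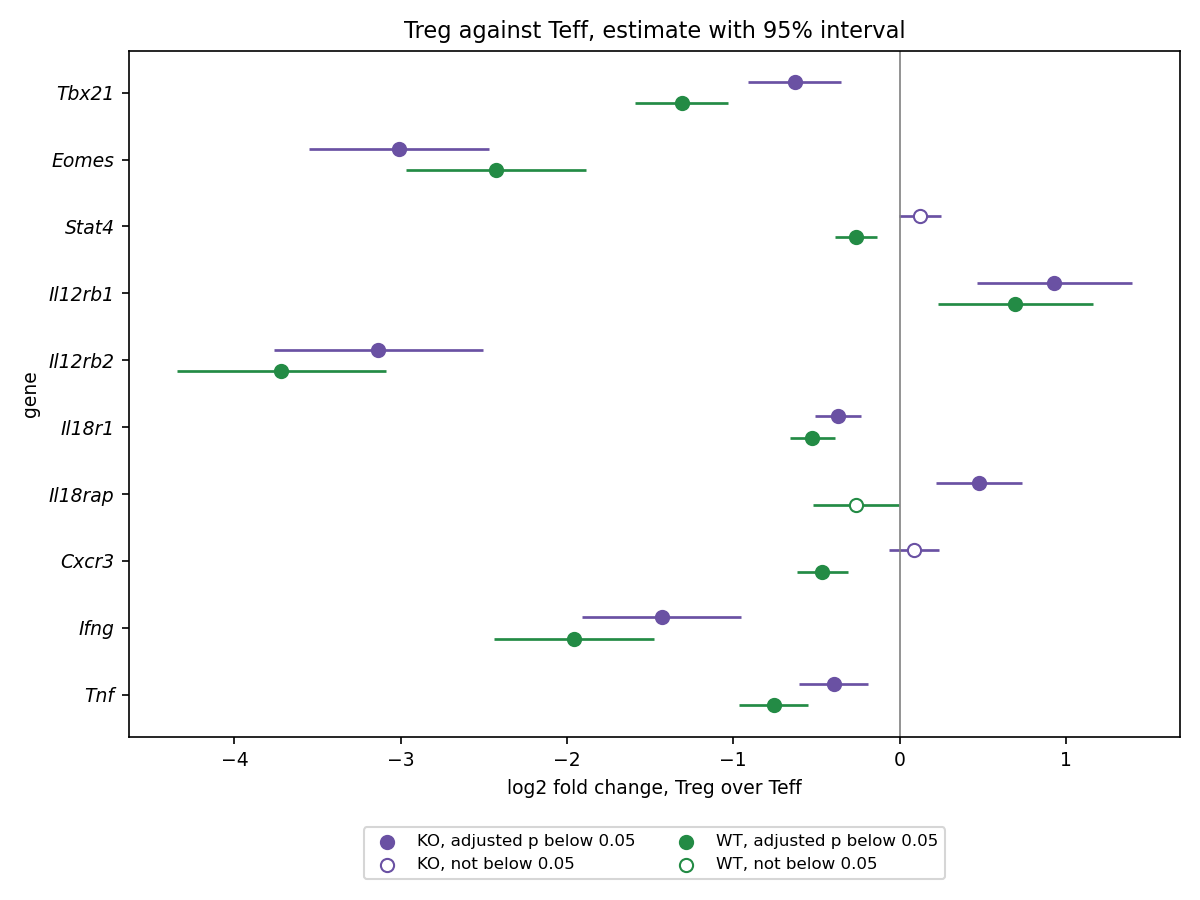
Log2 fold change of Treg over Teff for each of the 10 genes, with 95% intervals from limma, among KO mice (purple) and WT mice (green). Filled points passed an adjusted p of 0.05. Il12rb2, Eomes and Ifng lie farthest to the left in both genotypes, and Il12rb1 lies to the right of 0 in both.

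To compare genes with each other, mean values were divided by the length of all exons of a gene, merged, in kilobases (kb). Per kb, the strongest of the 10 genes in WT Teff was Cxcr3 at 1272, followed by Ifng at 819, Stat4 at 759 and Il18r1 at 716. Tnf had 486 per kb, Tbx21 256, Il12rb1 189, Il18rap 125, Il12rb2 60.7 and Eomes 47.9. In KO Teff the order at the top was Cxcr3 at 729, Il18r1 at 685 and Stat4 at 567 per kb, with Ifng at 378. In KO Treg Cxcr3 led with 774 per kb and in WT Treg with 922, and Il12rb2 was last with 3.54 and 4.28. These orders depend on annotated exon lengths and on means of 2 libraries, and they were not tested.

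The receptor pairs show how uneven the chains were. Per kb, Il12rb2 stood at 1.77% and 1.51% of Il12rb1 in KO Treg and at 1.25% and 1.56% in WT Treg. In Teff it stood at 39.8% and 21.4% in KO and at 27.1% and 36.4% in WT. Every Treg library was thus far below every Teff library, and the genotypes overlapped in both cell types. Il18rap stood at 23.1% and 22.1% of Il18r1 in KO Treg, against 19.4% and 22.4% in WT Treg, which overlap. In Teff it stood at 13.4% and 11.7% in KO, against 19.0% and 16.0% in WT, without overlap. Eomes stood at 32.9% and 28.1% of Tbx21 in KO Teff, against 21.6% and 16.0% in WT Teff, and at 5.94% and 5.27% in KO Treg, against 10.1% and 7.00% in WT Treg.

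**Figure D4:**
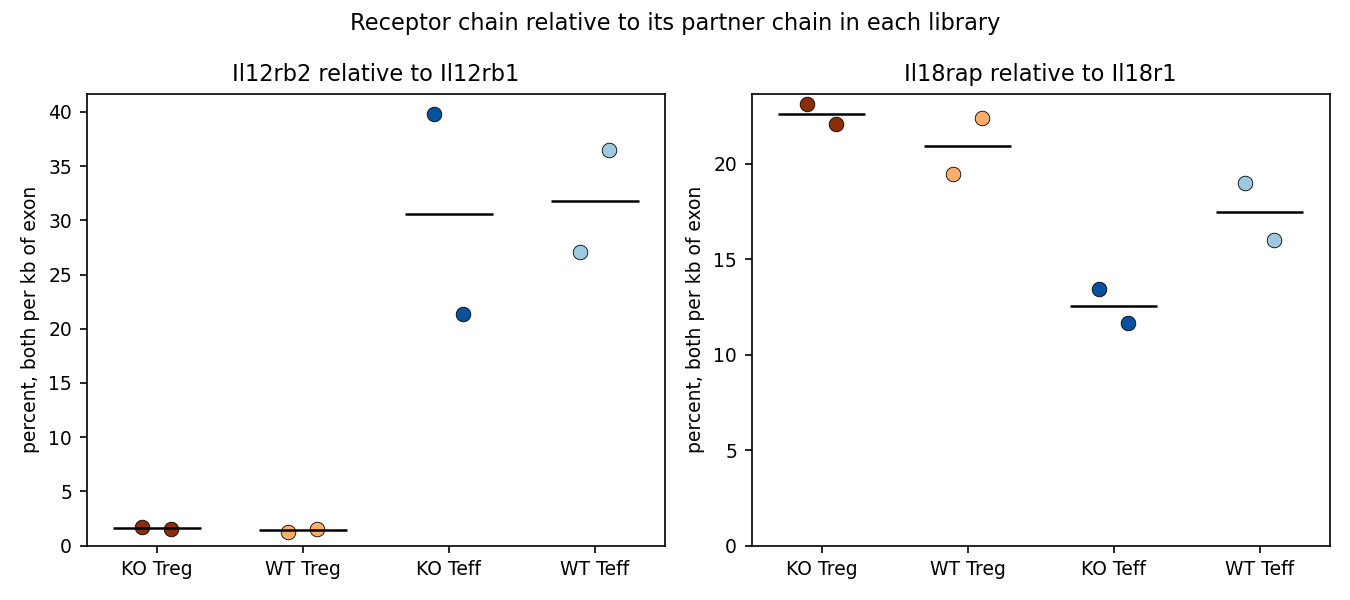
Level of Il12rb2 as a percent of Il12rb1 and of Il18rap as a percent of Il18r1, each per kb of exon, by library (points) with the mean of 2 libraries (line). Il12rb2 is between 1.25% and 1.77% of Il12rb1 in Treg and between 21.4% and 39.8% in Teff, and Il18rap is lowest relative to Il18r1 in KO Teff.

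The genes whose pattern over the 8 libraries was most like that of Tbx21 were found among 9956 tested genes with a mean of at least 50, by the root mean square difference between log2 profiles after each was centred on its mean. The 8 libraries are 4 groups of 2, so any gene with the same order of groups comes close. The 5 closest were Nkg7 (0.137), a gene of cytotoxic granules, BC147527 (0.171), Gsn (0.197), which encodes the actin-severing protein gelsolin, Cd7 (0.203), a T cell surface protein, and Pcdhgc3 (0.210), a protocadherin gene that shares exons with its neighbours, so that its own reads are uncertain. Nkg7 had 726 and 672 in KO Teff, against 1104 and 1112 in WT Teff, and 449.7 and 420.3 in KO Treg, against 469.5 and 527 in WT Treg. For Ifng the 5 closest were Slamf7 (0.251), a receptor of activated lymphocytes, Pou2af1 (0.256), a coactivator best known from B cells, Tbkbp1 (0.308), Xcl1 (0.309), a chemokine, and Rgcc (0.316). Slamf7 had 163 and 157 in KO Teff, against 265 and 301 in WT Teff, and between 52.7 and 91.1 in Treg.

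For KO against WT, 5.08% of all tested genes fell and 1.84% rose in Teff, and 1.45% were called in either direction in Treg. Of 19 tested Th1-linked effector genes (chemokines, chemokine receptors, killer proteins and transcription factors) 9 fell in KO Teff and none rose, with a median log2 fold change of -0.83 against -0.02 over all tested genes. Among them Ccl5, a chemokine, fell by 0.43 (adjusted p = 0.0283), Cxcr6, a chemokine receptor, by 0.87 (0.0263), Klrg1, an inhibitory receptor, by 0.79 (0.0467) and Hopx, a transcriptional cofactor, by 0.52 (0.0171). The count was 2 when only the 2 Teff groups were fitted, 6 without WT Teff replicate 1, 3 without WT Teff replicate 2, 4 without KO Teff replicate 1 and 3 without KO Teff replicate 2. Ccl5 lost its call when any Teff library or either WT Treg library was left out (adjusted p from 0.0533 to 0.122), Cxcr6 without WT Teff replicate 2 or either KO Teff library (0.0970 to 0.133), Hopx without either WT Teff library or KO Teff replicate 1 (0.0547 to 0.0725), and Klrg1 when any library but WT Teff replicate 2 was left out (0.0969 to 0.152). The Klrg1 call was lost in 15 of 18 alternatives, with an adjusted p of up to 0.328 when only the 2 Teff groups were fitted. With a pseudocount of 10 its estimate was -0.56. In WT mice 9 of the 19 were lower and 5 higher in Treg than in Teff, where 11.6% and 13.5% of all tested genes were. Among KO mice 9 were lower and 5 higher, against 11.2% and 15.7%. Ccl5 (-1.63) and Cxcr6 (-3.39) were lower in WT Treg than in WT Teff, and Klrg1 (5.20) and Hopx (1.47) were higher. In Treg none of the 19 was called for KO against WT (median -0.21), 1 was called when any 1 Teff library was left out, and 2 were called when only the 2 Treg groups were fitted.

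Of 17 tested genes of IL-12, IL-18 and interferon-gamma signalling, 2 fell and 1 rose in KO Teff, with a median of -0.06. Among all tested genes 5.08% fell and 1.84% rose, and counts this small do not show a difference from these shares. Il18bp, which encodes a soluble IL-18 inhibitor, was among those that fell (-0.84, adjusted p = 0.0459), and Ifngr2, a chain of the interferon-gamma receptor, was the 1 that rose (0.48, adjusted p = 0.0217). Both were named after their values were seen. The count of lower genes was 0 without WT Teff replicate 1 or 2 or KO Teff replicate 1, and 1 without any other single library. The rise of Ifngr2 was lost without WT Teff replicate 2 or either KO Teff library. Between cell types the list divided: Ifngr1, Il18 and Tyk2 were higher in WT Treg than in WT Teff (0.52, 2.83 and 0.44) and Il23r was lower (-3.20, adjusted p = 0.000136). The 6 myeloid genes described below summed to 9999 and 10113 in WT Treg, against 1405 and 954 in WT Teff. Their part in the difference of Il18 was not tested.

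Of 14 tested interferon-gamma-induced genes, 8 were higher and 2 lower in WT Treg than in WT Teff, where 13.5% and 11.6% of all tested genes were. In KO mice 7 were higher and 1 lower, where 15.7% and 11.2% of all tested genes were. Over the alternatives, 7 to 9 were higher in WT and 7 to 8 in KO mice. Gbp3, a guanylate-binding protein, was higher in Treg by 2.14 in KO and 1.74 in WT mice, and Cd274, which encodes PD-L1, by 1.02 and 0.80. For KO against WT, 5.08% of all tested genes fell in Teff and 0.779% in Treg. Of the 14 genes 4 fell in Teff, with a median over the 14 of -0.26 against -0.02 over all tested genes. Cd274 (-0.47, adjusted p = 0.0133) and Gbp3 (-0.41, adjusted p = 0.0377) were among the 4. The others, named after their values were seen, were Gbp2 (-0.50) and Gbp6 (-0.40). The count of 4 was 0 without WT Teff replicate 1 and 1 without any other single Teff library, and 2 without either WT Treg library. The call of Cd274 was lost without WT Teff replicate 1 or KO Teff replicate 2 (adjusted p = 0.0599 and 0.0676), and that of Gbp3 when any 1 library was left out (0.0525 to 0.159). In Treg 1 fell, Tap1, a peptide transporter (-0.28, adjusted p = 0.0397), a call lost without any single Treg library or either WT Teff library.

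Factors and cytokines of the other helper lineages were read beside them. Of 11 tested, 3 fell and 1 rose in KO Teff, where 5.08% and 1.84% of all tested genes did. The median of the 11 was -0.55, against -0.02 over all tested genes. Il21, a cytokine of follicular helper cells, had 427 and 433 in KO Teff, against 812 and 789 in WT Teff (-0.90, adjusted p = 0.0322). The other 2 that fell, named after their values were seen, were Bcl6, the follicular helper factor (-0.63, adjusted p = 0.00677), and Rora (-0.60, adjusted p = 0.0224), and the 1 that rose was Foxp3, near the floor. The count of lower genes was 1 without WT Teff replicate 2 or KO Teff replicate 2. The Il21 call was lost without any single Teff library or either WT Treg library (adjusted p from 0.0530 to 0.129), and the count of higher genes was 0 when any library but KO Teff replicate 1 was left out. Il17a, the cytokine of Th17 cells, had an estimate of -0.34 in KO Teff (adjusted p = 0.532). For KO against WT in Treg none of the 11 was called, where 1.45% of all tested genes were.

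Genes of activated and of resting T cells were read in the same libraries. Over all tested genes, 5.08% fell and 1.84% rose in KO Teff (median -0.02), and 0.779% fell and 0.674% rose in KO Treg (median -0.01). Of 8 activation and cycling genes, 7 fell in KO Teff, with a median of -0.70, and 3 fell in KO Treg, with a median of -0.40. Their summed level was 11154 to 12638 in KO Teff, against 17488 to 19138 in WT Teff, and 23499 to 23617 in KO Treg, against 27533 to 27619 in WT Treg. Mki67, a marker of cycling cells, fell by 1.29 in KO Teff (adjusted p = 0.000844) and by 0.53 in KO Treg (adjusted p = 0.0408). The Treg call was lost without any single Treg library or either WT Teff library (adjusted p from 0.0705 to 0.225). Of 9 genes of naive and resting cells, 3 rose in KO Teff and 4 in KO Treg, and all 9 estimates were above 0 in both. Satb1, a chromatin organizer, rose by 0.32 and 0.43 (adjusted p = 0.0188 and 0.0151) in KO Teff and KO Treg. Its Teff call was lost without WT Teff replicate 2 or either KO Teff library (0.0618 to 0.0882), and its Treg call when any Treg library was left out (0.0791 to 0.142). The count of higher genes in Teff was 1 without WT Teff replicate 2, and the count in Treg was 1 when any Treg library was left out. The count of 3 falls in Treg was 0 when any Treg library and 1 when any Teff library was left out. The part of activated and resting cells in the levels of the Th1 genes was not tested.

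**Figure D5:**
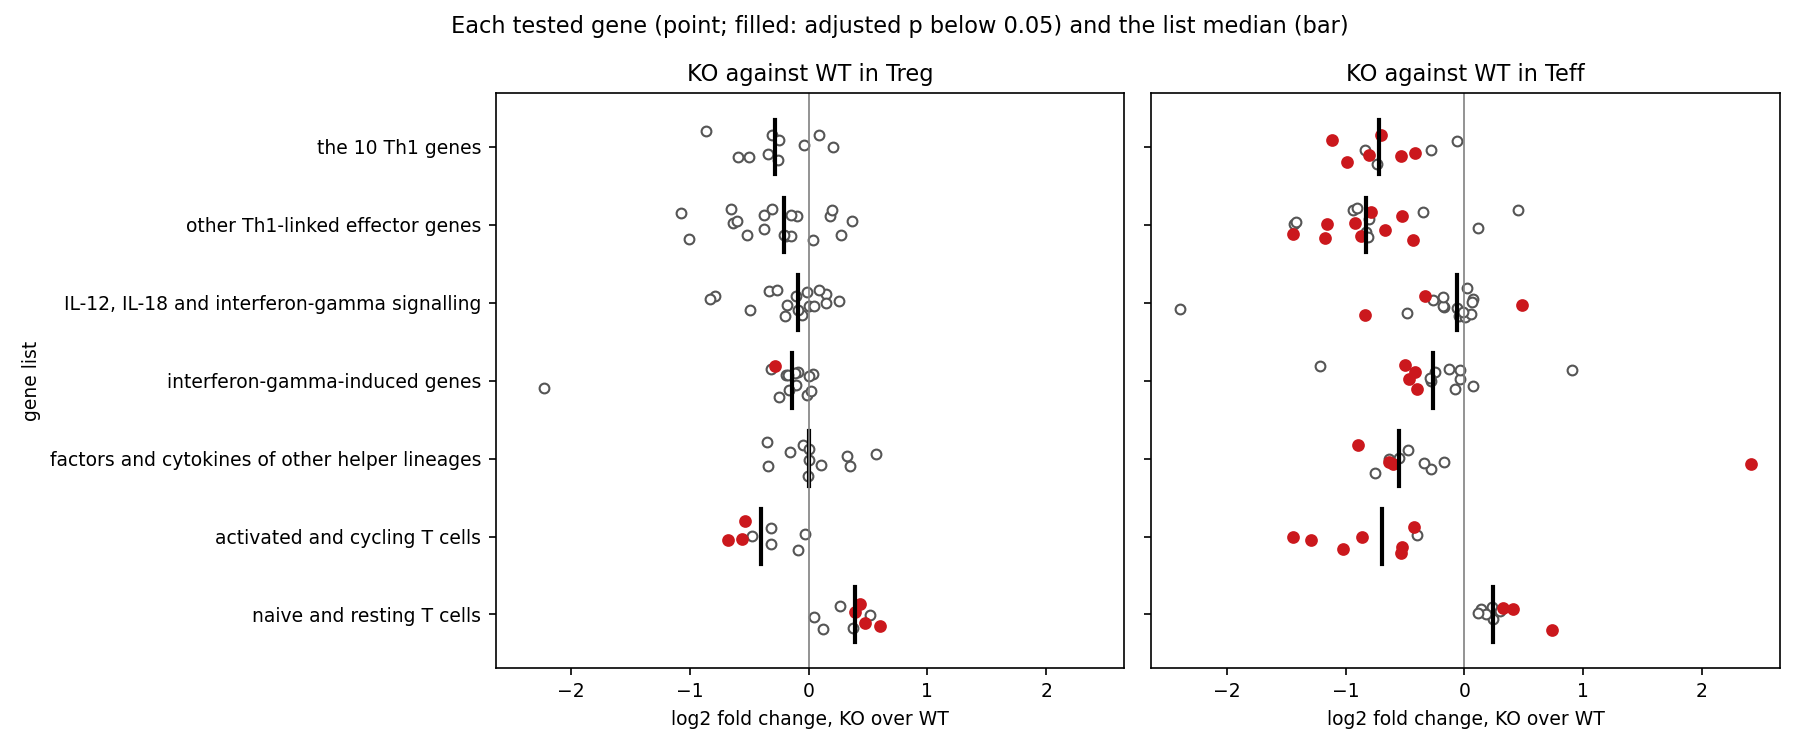
Log2 fold change of KO over WT in Treg (left) and in Teff (right) for each tested gene of 7 gene lists. Filled points passed an adjusted p of 0.05 and bars are list medians. In Teff the medians of the 10 Th1 genes (-0.72), of other Th1-linked genes (-0.83) and of activation and cycling genes (-0.70) lie together below 0, and that of signalling genes (-0.06) lies near 0. Those of other helper lineages (-0.55) and of interferon-gamma-induced genes (-0.26) are also below 0, and that of naive and resting genes (0.24) is above 0.

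Markers of other cell types that can express these genes were read in the same libraries, and their part in the results was not tested. T cell receptor genes and Cd4 had a median of -0.02 in Teff and -0.05 in Treg for KO against WT. None of the 5 was called, where 6.92% of all tested genes were in Teff and 1.45% in Treg. Of 9 genes of natural killer (NK) cells and related innate cells, 7 were in the table, with a summed level of 479.8 to 657 in KO Teff, against 937 to 1103 in WT Teff, and of 746 to 825 in KO Treg, against 1249 to 1295 in WT Treg. The defining NK receptor gene Ncr1 was at 0 in all 4 Treg libraries, at 0 and 3.09 in KO Teff and at 8.04 and 7.06 in WT Teff, and Klra7 was at 0 in Treg and at most 1.1 in Teff. Klrb1c, which encodes NK1.1 and is also found on NKT cells and some activated T cells, had 345 and 280.4 in KO Teff, against 441 and 564 in WT Teff, and at most 42.8 in Treg. Klre1 and Klri2, receptors of the same gene region, lay between 23.4 and 31.1 in KO Teff, between 26.7 and 61.5 in WT Teff, and at most at 7.37 in Treg. Fcer1g and Tyrobp, signalling adaptors that myeloid cells also express, fell in KO Teff (-1.15 and -1.07, adjusted p = 0.0362 and 0.0413). In Treg these adaptors made up most of the summed level, and the other genes of the list were at the low values given above.

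Zbtb16, the factor of NKT cells, had 153 and 141 in KO Teff, against 192 and 202 in WT Teff, and at most 7.84 in Treg; it was the 1 gene of 4 on its list in the table. CD8 genes summed to 270.2 and 289 in KO Teff, against 249.96 and 277 in WT Teff, and to 265 and 295 in KO Treg, against 261 and 248 in WT Treg. Of 7 myeloid genes 6 were in the table, with a sum of 559 to 649 in KO Teff, against 954 to 1405 in WT Teff. In Treg the sum was 5900.2 to 6149.7 in KO, against 9999 to 10113 in WT. The median for KO against WT was -1.06 in Teff, with all 6 estimates below 0, and -0.75 in Treg, with 5 below 0. None of the 6 was called in either cell type, where 6.92% of all tested genes were in Teff and 1.45% in Treg. Csf1r, the receptor of macrophage growth factor, had 85.3 and 55.3 in KO Teff, against 300.3 and 114 in WT Teff. B cell genes summed to at most 104 in Teff and 343 in Treg, and genes of plasmacytoid dendritic cells to 334 and 499 in KO Teff, against 659 and 742 in WT Teff, and to at most 159.8 in Treg.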

How the data were processed

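Messenger RNA of sorted Treg and Teff was measured in 4 groups of 2 libraries, placed by the description labels. Per the labels' protocols, polyadenylated RNA was selected and read as 50-base single ends. No step that marks the strand and no molecular identifiers are named, so antisense and overlapping genes cannot be told apart.

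The submitters' processing notes name Trim Galore 0.4.4, Salmon 0.14.1, DESeq2 1.28.1, R 4.0.3 and mm10. The step from transcripts to genes is not stated there. For each library the authors deposited a signal column of normalized read numbers. Of the positive values, 28.7% to 29.4% were whole multiples of the commonest step (tolerance 0.02), and count models were therefore not used. Beside them stand the authors' own log2 ratios (KO over WT) and adjusted p-values, which are copied here where named. Precision rests on 2 libraries per group.

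Each value was tested as log2(value + 1) in limma 3.58.1 under R 4.3.3, with trend and robust shrinkage, 1 coefficient per group over 8 libraries and 4 residual degrees of freedom, for genes reaching 10 in at least 2 libraries. P-values were adjusted over all tested genes within each of 5 contrasts. The procedure was checked on simulated data with changes of 1 and 2 on the log2 scale, so the check does not cover smaller changes. Coordinates and exon lengths came from GENCODE M21 (GRCm38, also called mm10), in which all 10 identifiers matched with their versions. Python 3.11.15 with pandas 2.3.3, numpy 2.4.6 and matplotlib 3.10.9 served for tables and plots.

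The 10 genes, the lists and the tests were chosen with earlier results of these data known. The genes named are all 10, up to 4 per list with the smallest p over the 5 contrasts, genes of other cell types by their level or sum, and the 5 genes closest to Tbx21 and to Ifng, leaving out predicted genes and antigen receptor segments. Genes named outside this rule are marked, and some list genes are not reported here. Alternatives were other pseudocounts, filters, scalings and shrinkage, fits of the compared groups alone, a replicate block and each library left out. For the lists these were added after seeing the data.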

Additional observations from a re-analysis of the deposited data

How the results depend on the processing

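Results for the 10 Th1 genes were recomputed under 18 alternatives (17 for the difference of effects). The count of called genes ranged from 4 to 6 for KO against WT in Teff, was 0 in Treg and for the difference of effects, and ranged from 7 to 9 for Treg against Teff in WT and from 6 to 9 in KO. Single calls that were lost stand beside their genes above, and the cause was not tested. For the difference of effects, the Il12rb1 estimate ranged from -0.55 to 0.082 over fits without a single library and changed sign without KO Teff replicate 1. Over all tested genes, the KO against WT calls ranged from 44 to 241 in Treg (194 as reported) and from 210 to 959 in Teff (924), and those for the difference of effects from 0 to 11 (3). Of the calls for Treg against Teff in KO, 58.4% were higher, against 68.1% with equal library totals and 49.0% with quantile normalization. In WT the share was 53.8%, against 61.4% and 47.3% under the same scalings.

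Replicate numbers are shared across groups, but nothing says that a number marks an animal or a batch, and deviations of same-numbered libraries correlated between -0.0384 and 0.0590 across genes. With the replicate number as a block, 5 of the 10 genes were called for KO against WT in Teff, Il18rap being lost (adjusted p = 0.0524), and no other call of the 10 genes changed. Over all tested genes the block left 114 calls in Treg. For KO against WT in Treg it gave 0 calls among activation and cycling genes (3 as reported, with Mki67 at an adjusted p of 0.0544), 2 among resting genes (4) and 0 among interferon-gamma-induced genes (1). In Teff it gave 1 lower call among signalling genes (2) and 0 higher calls among other helper lineages (1), and ended the calls of Ccl5, Klrg1, Gbp3 and Il21 (adjusted p from 0.0518 to 0.0649).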
